A study of Mus musculus with 21 samples.

Results

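The genes described here are the 10 members of the MHC class I presentation pathway listed for this work: B2m, H2-K1, Tap1, Tap2, Tapbp, Erap1, Nlrc5, Psmb8, Psmb9 and Psmb10. They were taken by name from the deposited table of RefSeq transcripts, with the transcript of the highest mean count standing for each gene. The members were, however, chosen with earlier results of these data known. They are 10 of 25067 genes in that table, and all 10 were among the 12529 genes tested.

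Poly(A) RNA was sequenced from macrophages grown from the bone marrow of male C57Bl6/J mice of 6 to 12 weeks, after 7 days of culture in medium conditioned by L929 cells. The study compared wild-type (WT) macrophages with macrophages labelled as knockouts (KO) of Nur77, the nuclear receptor encoded by Nr4a1. Both genotypes were left without lipopolysaccharide (LPS, a bacterial cell wall component that activates Toll-like receptor 4), or were given LPS at 100 ng/ml for 4 or 18 h. Each of the 3 WT groups had 4 libraries and each of the 3 labelled-KO groups had 3, which makes 21 in all. All groups share the strain, the sex and the culture. For the labelled-KO samples the genotype field holds just the word cre. The sources used here do not give the allele, the promoter behind cre or whether the loss is germline. Libraries carry numbers, but nothing says that they are separate mice, so p-values measure the spread between libraries, which may be technical.

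MHC class I molecules show peptides from inside the cell to CD8 T cells. Proteins are cut by the proteasome, the peptides are carried into the endoplasmic reticulum by the TAP transporter, trimmed there, and loaded onto a heavy chain paired with beta-2-microglobulin. Interferons and inflammatory signals exchange the catalytic subunits of the standard proteasome for those of the immunoproteasome, and the regulator NLRC5 binds class I promoters. Macrophages are known to raise this pathway when Toll-like receptor 4 or interferon receptors are engaged.

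Deposited columns summed to between 23478281.5 and 55852932 per library, and each member held between 1238 and 479069 counts per group. CPM are counts per 1000000 of the library total times its TMM factor. Library totals here and below are sums over the 12529 tested genes, with 1 transcript per gene, and not the deposited sums. Nr4a1 itself stood at 13.4 to 16.2 CPM in WT and 12.2 to 12.4 CPM in labelled-KO libraries without LPS. That difference was not called (edgeR adjusted p = 0.75). At 4 h it was lower in labelled KO (log2 fold change -1.77, edgeR adjusted p = 0.04) and at 18 h higher (1.35, edgeR adjusted p = 0.023). At 4 h WT libraries 1 to 4 stood at 7.25, 2.16, 1.74 and 1.3 CPM, so library 1 was far above the others. Labelled-KO libraries 2, 3 and 4 then held 5, 8 and 19 counts, at 0.531, 0.869 and 1.21 CPM. Counts at 18 h were low too, at 12 to 34 in WT and 24 to 49 in labelled KO. Where the deleted part of the gene lies is not given, so the level of Nr4a1 checks the label only weakly. All 10 macrophage markers examined, such as Adgre1, Csf1r and Lyz2, were detected in every group. The TMM factors, which edgeR sets from the bulk of genes, were 1.395 to 1.474 at 0 h, 0.699 to 0.762 at 4 h, 0.988 to 1.034 in WT at 18 h and 0.853 to 0.888 in labelled KO at 18 h. Directions in CPM therefore depend on these factors, and comparisons were also made on library totals without them, an alternative chosen after seeing the data. In bulk samples, fewer cells of a type and less RNA per cell cannot be told apart.

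At 0 h the light chain was the most abundant of the 10 transcripts per length and the regulator the least. In WT without LPS, B2m stood at 1927 ± 476 CPM per kilobase (SD, n = 4), H2-K1 at 352 ± 16.3 and Tapbp at 108 ± 11.6 on the same scale. The remaining members followed at 30.7 ± 1.98 for Psmb8, 18.6 ± 2.53 for Tap1, 17.9 ± 1.56 for Psmb10, 15.5 ± 0.814 for Erap1, 11.2 ± 1.8 for Psmb9, 8.25 ± 0.1 for Tap2 and 4.8 ± 0.634 for Nlrc5. Tap1, Psmb10 and Erap1 lay close together, with neighbours among them differing by about their SDs added together or less, and the other neighbours in this order differed by more than that. After 4 h of LPS, Tap1 had moved above Psmb8, at 338 ± 22.7 against 195 ± 22.1 CPM per kilobase, while Erap1 had become the lowest of the 10 at 26.5 ± 2.39. Together the 10 genes took 0.364 to 0.499% of the kept counts of the WT libraries at 0 h, 0.756 to 0.987% at 4 h and 1.267 to 1.317% at 18 h. Kept counts are those of 1 transcript per gene over 25067 genes, less than the deposited sums.

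On TMM-scaled counts all 10 genes rose with LPS in WT cells at 4 h and at 18 h, and the sizes differed widely; on library totals 9 rose at 4 h and Erap1 fell, and all 10 rose at 18 h. The regulator Nlrc5, the transporter subunit Tap1 and its partner Tap2 had the largest changes at 4 h, and the trimming enzyme Erap1 the smallest. All 10 were called higher at 4 h and all 10 at 18 h, by edgeR's quasi-likelihood test at a Benjamini-Hochberg adjusted p under 0.05 over 12529 genes. Of all genes tested, 35.1% were called higher at 4 h and 34.8% at 18 h. The WT groups did not overlap for any of the 10 in either comparison, as for 71.5% of all genes at 4 h and 66.4% at 18 h. The median log2 fold change of the 10 was 2.71 at 4 h and 2.49 at 18 h, against -0.17 and -0.05 over all genes tested. Labelled-KO libraries gave the same counts, 10 of 10 higher at 4 h (33.5% of all genes) and 10 of 10 at 18 h (34.5% of all genes), with medians of 2.45 and 2.61. Their groups did not overlap for any of the 10 either, as for 79.1% of all genes at 4 h and 74.4% at 18 h. With upper-quartile scaling the median of all genes at 4 h in WT moved from -0.17 to -0.52, and the share of higher among all calls from 45% to 32.6%. The 10 genes were called higher under that scaling too, with values between 0.43 for Erap1 and 4.01 for Nlrc5. At 18 h in WT that share went from 48.9 to 38.6%, and at 4 h in labelled KO from 44.7 to 33.4%. On library totals the median of all genes in WT was -1.15 at 4 h and -0.56 at 18 h, and the share of higher among all calls was 19% and 23.7%. In labelled KO those medians were -1.1 and -0.8, the shares went to 19.6% and, from 47.2%, to 21.3%, and 9 members were called higher at 4 h and 10 at 18 h. The values of the 9 in WT at 4 h ran there from 0.61 for B2m to 3.38 for Nlrc5.

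**Figure D1:**
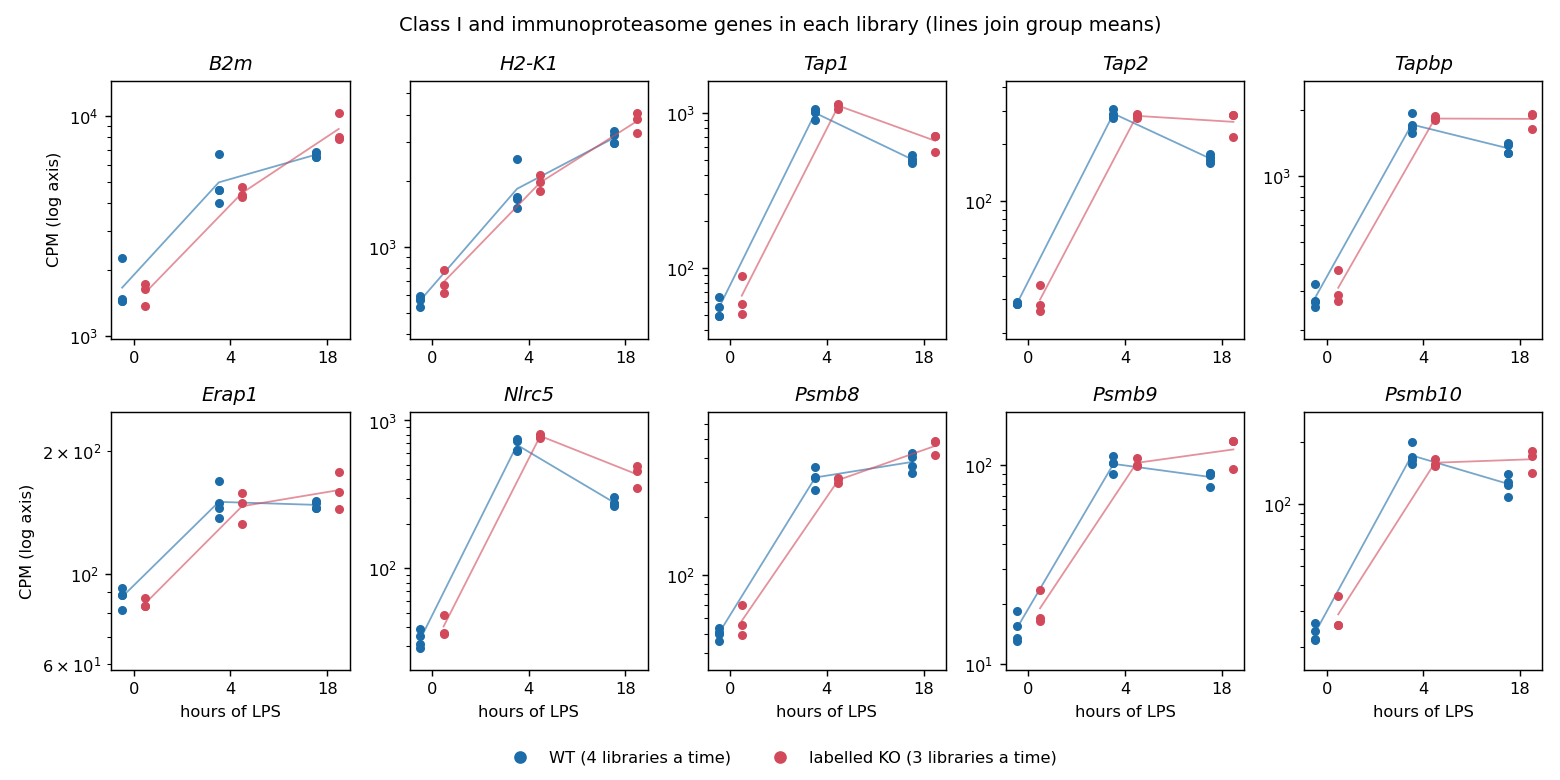
Level of each of the 10 genes in every library, in CPM on a log axis, at 0, 4 and 18 h of LPS, with WT and labelled-KO libraries in separate colours; the time axis is by category, not to scale. On this TMM scale all 10 genes stood higher in every LPS library than in every library at 0 h of the same genotype. On library totals this did not hold for Erap1 at 4 h, or for B2m in WT, whose 0 and 4 h libraries overlapped.

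**Figure D2:**
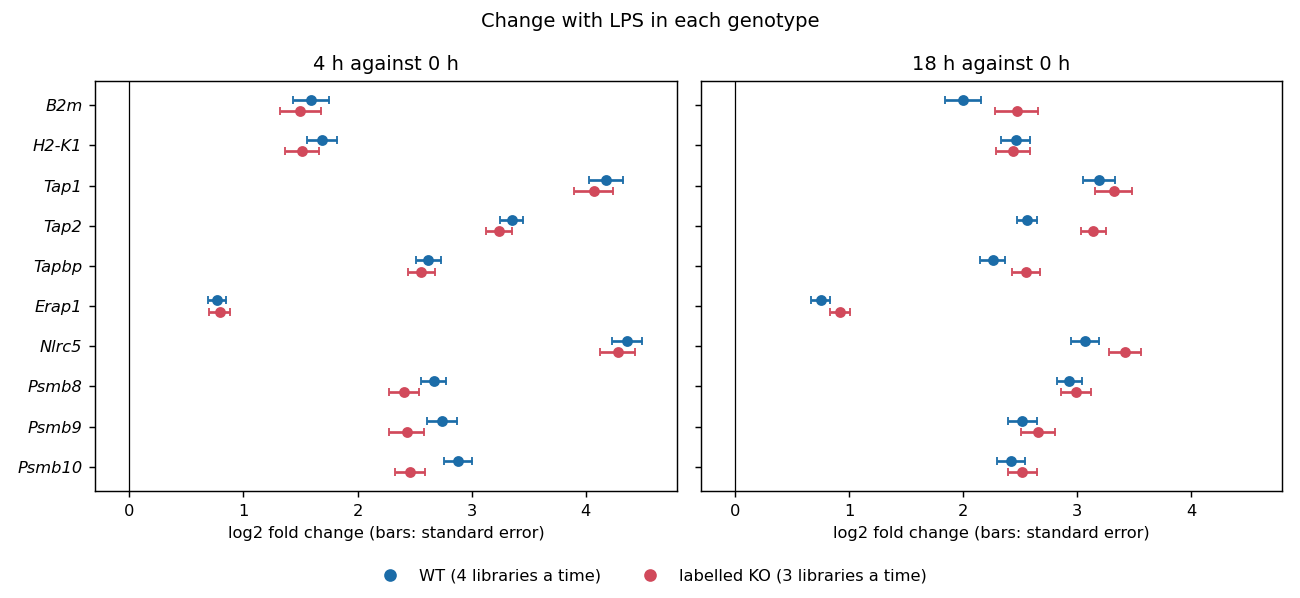
Log2 fold change against 0 h of each of the 10 genes at 4 h and at 18 h of LPS, in WT and in labelled KO, with bars of 1 standard error from edgeR. Nlrc5 and Tap1 were highest at 4 h in both genotypes, at 4.36 and 4.18 in WT, and Erap1 lowest at 0.77, a value that was -0.2 on library totals.

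B2m, the light chain that stabilises every classical class I molecule, was measured at 2271, 1470, 1447 and 1442 CPM in WT libraries 1 to 4 at 0 h. The same libraries' counterparts stood at 6717, 4594, 4583 and 4033 CPM at 4 h, and at 6485, 6758, 6839 and 6519 CPM at 18 h. WT library 1 was the highest at 0 and at 4 h, and at 18 h the 4 lay close together. The rise was 3.01-fold at 4 h (log2 fold change 1.59, SE 0.16, edgeR adjusted p = 6e-09) and 4.01-fold at 18 h (2.0, SE 0.16, edgeR adjusted p = 2.5e-10). B2m lies on chromosome 2 at chr2:122147687-122153082 in the GRCm38.p6 (mm10) annotation, where its span overlaps Patl2.

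The heavy chain gene H2-K1 stood at 596, 534, 573 and 580 CPM in WT libraries 1 to 4 at 0 h. It reached 2508, 1503, 1659 and 1683 CPM at 4 h, and 3229, 2973, 2972 and 3358 CPM at 18 h. Its groups were separate at every time in WT, and library 1 again stood above the other 3 at 4 h. The log2 fold change was 1.69 (SE 0.13, edgeR adjusted p = 7.5e-11) at 4 h and 2.46 at 18 h. H2-D1, the other classical heavy chain of this strain, had the higher level per length without LPS, at 649 ± 6.8 CPM per kilobase against 352 ± 16.3 for H2-K1 (SD, n = 4). At 18 h H2-K1 stood at 1935 ± 119 and H2-D1 at 1760 ± 92.3 on the same scale. H2-K1 (chr17:33996012-34000619) and H2-D1 share sequence with each other and with the Q and T heavy chain genes, and how shared reads were counted is not given, so their levels are uncertain.

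The promoters of B2m and H2-K1 are shown because, among members with a promoter sequence, these 2 hold matches to the consensus of NF-kB, a factor that LPS activates. Members without a match rose too, and the part of these matches in the rise was not tested. Sequences and start sites are RefSeq's on GRCm38.p6, and 8 of the 10 genes had a window of 250 bases before to 50 after a start (Tap2 and Nlrc5 had none). The 150 bases before the start are printed 5′ to 3′ on the strand of the gene. Capitals mark matches to the interferon response element core GAAANNGAAA or to the NF-kB consensus, searched on both strands. B2m is on the plus strand at chr2:122147537-122147686 and H2-K1 on the minus strand at chr17:34000334-34000483. H2-K1 has another start, not printed, whose stretch is chr17:34000348-34000497 and holds the same NF-kB matches. Both stretches lie inside the annotated span of H2-K1, chr17:33996012-34000619, so they are not upstream of the whole gene.
B2m: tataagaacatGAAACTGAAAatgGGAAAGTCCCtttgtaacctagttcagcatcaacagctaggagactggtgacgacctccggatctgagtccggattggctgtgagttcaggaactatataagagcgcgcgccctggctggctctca
H2-K1: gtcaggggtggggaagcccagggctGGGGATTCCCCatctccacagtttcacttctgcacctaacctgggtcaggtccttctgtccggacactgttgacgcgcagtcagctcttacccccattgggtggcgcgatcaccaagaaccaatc
In B2m the interferon core lies at -139 to -130 from the start and the NF-kB match, on the other strand, at -126 to -117. In H2-K1 the capitals hold 4 overlapping NF-kB matches, 2 on each strand. The interferon core was found in 3.4% of 32851 windows of all genes and in the windows of 2 members, B2m and Erap1. The NF-kB consensus was found in 8.5% of windows and, among the members, in B2m and H2-K1. A match describes letters and says nothing of binding.

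Tap1 and Tap2 encode the paired subunits of the transporter that carries peptides into the endoplasmic reticulum. Tap1 stood at 65, 49.4, 56.1 and 49.1 CPM in WT libraries 1 to 4 at 0 h, at 1066, 905, 1011 and 1011 CPM at 4 h, and at 506, 472, 493 and 536 CPM at 18 h. Every 18 h library was below every 4 h library and above every 0 h library. The rise at 4 h was 18.1-fold (log2 fold change 4.18, SE 0.15, edgeR adjusted p = 1.5e-16). Between 4 and 18 h Tap1 fell by 0.99 on the log2 scale (edgeR adjusted p = 7.2e-07).

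Tap2 was the steadiest member at baseline, with 28.2, 28.2, 28.9 and 28.3 CPM in WT libraries 1 to 4. It stood at 309, 276, 290 and 287 CPM at 4 h and at 170, 165, 158 and 178 CPM at 18 h. The log2 fold change at 4 h was 3.35 (SE 0.1, edgeR adjusted p = 6.5e-18), and from 4 to 18 h Tap2 fell by 0.79 (edgeR adjusted p = 6.9e-08). Tapbp encodes tapasin, which bridges the transporter and the empty class I molecule. It ranged from 255 to 323 CPM in WT at 0 h, from 1577 to 1933 at 4 h and from 1271 to 1409 at 18 h, a rise of 2.62 on the log2 scale at 4 h and a fall of 0.36 from 4 to 18 h (edgeR adjusted p = 0.003). That fall was not called with upper-quartile scaling (-0.2, edgeR adjusted p = 0.071) and was 0.11 on library totals (edgeR adjusted p = 0.32). Erap1, the aminopeptidase that trims peptides in the endoplasmic reticulum, ranged from 81.2 to 92.2 CPM at 0 h, from 137 to 169 at 4 h and from 145 to 151 at 18 h. Its rise was 1.71-fold at 4 h (log2 fold change 0.77, SE 0.08, edgeR adjusted p = 5.1e-09), and between 4 and 18 h it differed by -0.02 (edgeR adjusted p = 0.78). The direction of Erap1 rests on the scaling: per 1000000 of the library total it stood at 120 to 131 at 0 h, 98.1 to 118 at 4 h and 143 to 155 at 18 h, log2 fold changes of -0.2 (edgeR adjusted p = 0.013) at 4 h and 0.24 (edgeR adjusted p = 0.0048) at 18 h. From 4 to 18 h it was then 0.44 (edgeR adjusted p = 1.1e-05). The span of Tapbp (chr17:33919478-33929290) overlaps the long noncoding RNA gene Gm19412 and that of Erap1 (chr13:74639573-74693205) overlaps Cast. Whether counting used strand is not given, so reads of overlapping genes cannot be told apart.

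Nlrc5, the transactivator of class I genes, had the largest change of the 10. It stood at 38.9, 28.9, 30.8 and 34.7 CPM in WT libraries 1 to 4 at 0 h, at 753, 632, 626 and 723 CPM at 4 h, and at 275, 306, 274 and 264 CPM at 18 h. The groups were separate at every time, with the 4 h libraries highest. The rise at 4 h was 20.6-fold (log2 fold change 4.36, SE 0.13, edgeR adjusted p = 9.5e-18), and from 4 to 18 h Nlrc5 fell by 1.29 (edgeR adjusted p = 1.8e-09). Its span (chr8:94434335-94527272) overlaps 9330175E14Rik, Gm51584 and Mir7072.

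Psmb8, Psmb9 and Psmb10 encode the inducible catalytic subunits of the immunoproteasome, which take the places of Psmb5, Psmb6 and Psmb7. Psmb8 stood at 49.7, 45.7, 51.3 and 53.3 CPM in WT libraries 1 to 4 at 0 h, at 361, 273, 317 and 319 CPM at 4 h, and at 404, 333, 365 and 424 CPM at 18 h. Psmb9 stood at 18.4, 13.1, 15.5 and 13.5 CPM at 0 h, at 111, 90.2, 103 and 102 CPM at 4 h, and at 90.9, 77.3, 89.2 and 91.6 CPM at 18 h. For both, each LPS group was separate from 0 h, and the 4 and 18 h groups overlapped each other. Psmb10 stood at 22, 21.7, 24 and 26.1 CPM at 0 h, at 200, 156, 170 and 163 CPM at 4 h, and at 128, 108, 124 and 140 CPM at 18 h. In CPM every 18 h library of Psmb10 was below every 4 h library, while on library totals the log2 change between them was 0.0. The log2 fold changes at 4 h were close to each other, at 2.67 (SE 0.11) for Psmb8, 2.74 (SE 0.13) for Psmb9 and 2.88 (SE 0.12) for Psmb10.

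On TMM-scaled counts the standard subunits rose too, but by less. At 4 h the log2 fold change in WT was 0.58 for Psmb5, 1.51 for Psmb6 and 1.02 for Psmb7, and at 18 h it was 1.4, 0.78 and 1.17, all 6 called higher by edgeR; on library totals Psmb5 at 4 h was lower, at -0.4, and Psmb7 was not called, at 0.04. A ratio of an inducible to its standard subunit within a library does not depend on how libraries are scaled. Per length, the ratio of Psmb8 to Psmb5 in WT was 1.33 ± 0.205 at 0 h, 5.6 ± 0.426 at 4 h and 3.81 ± 0.203 at 18 h (SD, n = 4). The ratio of Psmb10 to Psmb7 was 0.506 ± 0.0484, 1.83 ± 0.209 and 1.2 ± 0.113, so the inducible transcript passed the standard one under LPS. The ratio of Psmb9 to Psmb6 stayed under 1, at 0.135 ± 0.0225, 0.322 ± 0.0525 and 0.454 ± 0.00413. A ratio shows unequal change, and these are RNA levels, not subunits of assembled proteasomes.

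**Figure D3:**
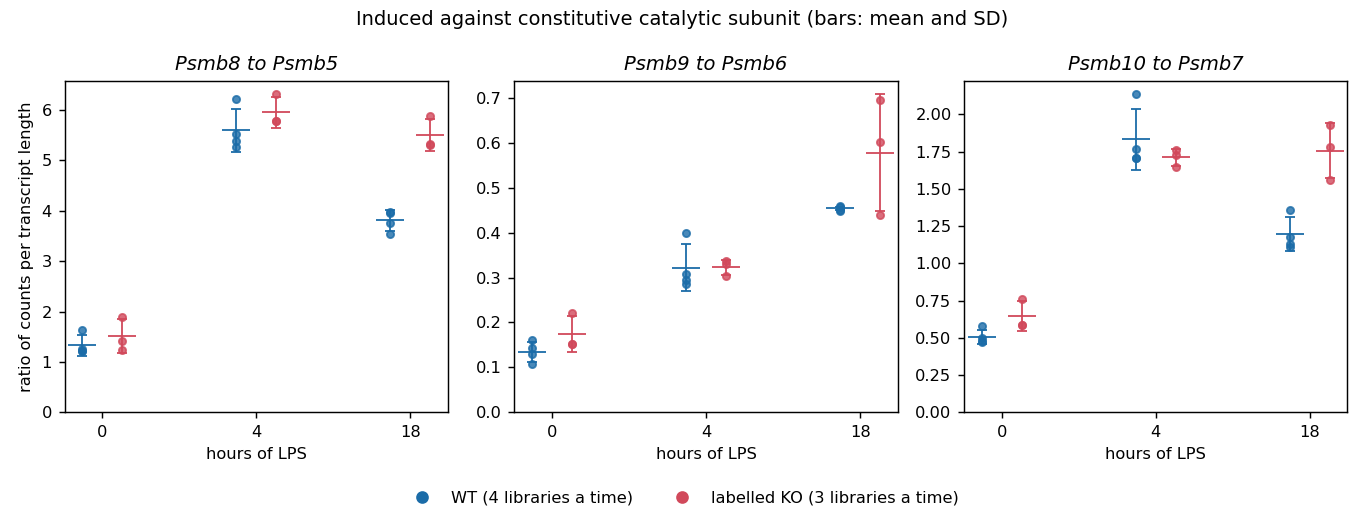
Ratio of each inducible catalytic subunit to the standard subunit it replaces, per transcript length, in every library at 0, 4 and 18 h, with the mean and SD of each group; the time axis is by category. At 18 h the 4 WT libraries lay between 3.54 and 3.98 for Psmb8 to Psmb5 and the 3 labelled-KO libraries between 5.3 and 5.87.

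Of the 10 genes, 4 share a single stretch of chromosome 17. In order, Psmb9 (chr17:34182030-34187330), Tap1 (chr17:34187556-34197225), Psmb8 (chr17:34198195-34201454) and Tap2 (chr17:34204479-34216321) span 34292 bases, with 225, 969 and 3024 bases between neighbours. Psmb9 and Tap1 are read in opposite directions from the 225 bases between them. That stretch, chr17:34187331-34187555 on the plus strand of GRCm38.p6, is shown because both genes start from it and both rose under LPS, Tap1 by 4.18 and Psmb9 by 2.74 on the log2 scale at 4 h. Capitals mark a CCAAT box.
Psmb9-Tap1 gap: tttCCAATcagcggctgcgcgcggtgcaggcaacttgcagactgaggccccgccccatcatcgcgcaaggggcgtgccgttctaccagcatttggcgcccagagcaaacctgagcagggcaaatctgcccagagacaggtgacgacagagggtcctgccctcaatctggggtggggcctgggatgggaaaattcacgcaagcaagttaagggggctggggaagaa
The box lies at -8 to -4 from the start of Psmb9, on its opposite strand, and at -222 to -218 from that of Tap1. The sequence CCAAT was found in 37.4% of all windows and in those of 5 members. The gamma-activated site TTCNNNGAA was found in 8.3% of all windows and, among the members, in that of Psmb8 at -97 to -89. Psmb10 is on chromosome 8 (chr8:105935728-105938392), away from this cluster.

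From 4 to 18 h the WT members moved in both directions. B2m, H2-K1 and Psmb8 were called higher at 18 h than at 4 h, 3 of 10 where 37.2% of all genes were. Tap1, Tap2, Tapbp, Nlrc5 and Psmb10 were called lower, 5 of 10 where 34.5% of all genes were. The log2 changes ran from -1.29 for Nlrc5 to 0.77 for H2-K1 (edgeR adjusted p = 1.2e-05), and the groups did not overlap for 6 of the 10, against 65.1% of all genes. The share of higher among all calls was 51.9%, 60.1% with upper-quartile scaling and 73.1% on library totals, where the median of all genes was 0.52. On library totals 4 members were higher, with Erap1 added, and 3 lower: Tap1 at -0.53, Tap2 at -0.33 and Nlrc5 at -0.82. The calls of B2m (0.42, edgeR adjusted p = 0.019) and Psmb8 (0.26, edgeR adjusted p = 0.028) were lost when single libraries were left out: without WT 4 h library 2, H2-K1 was the 1 member of the 3 still called higher. That of Psmb8 was also lost with DESeq2 (0.2, adjusted p = 0.082) and with median-of-ratios factors (0.2, edgeR adjusted p = 0.09). In labelled KO, 3 members were higher at 18 h than at 4 h (33.3% of all genes) and 2 were lower (32.1% of all genes). The 3 were again B2m, H2-K1 and Psmb8, and the 2 were Tap1, which fell by 0.75, and Nlrc5, which fell by 0.86. Tap2, Tapbp and Psmb10 there differed by -0.1, -0.01 and 0.05, which were not called. Upper-quartile scaling gave 5 higher there and library totals 6, where the share of higher among all calls went from 50.9 to 63.1% and the median of all genes was 0.26.

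Between genotypes, none of the 10 genes was called at 0 h or at 4 h. At 0 h the log2 fold changes of labelled KO over WT ran from -0.07 to 0.32, and edgeR, DESeq2 and limma-voom each called 0 of 10 (3 of 10 had an unadjusted edgeR p under 0.05, all higher). Of all genes, 1.11% were called higher and 2.87% lower. The groups did not overlap for 1 member, H2-K1 (17.7% of all genes), which stood at 534 to 596 CPM in WT and 616 to 784 in labelled KO. Labelled-KO library 2 was the highest of its group for 9 of the 10 at that time. At 4 h the changes ran from -0.16 to 0.2, all 3 tools called 0 of 10, and 0 had an unadjusted p under 0.05, beside 2.87% of all genes called higher and 2.7% lower. Nlrc5 alone did not overlap at 4 h (17.7% of all genes), at 626 to 753 CPM in WT and 762 to 813 in labelled KO.

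At 18 h all 10 genes had a positive log2 fold change in labelled KO on TMM-scaled counts (on library totals Erap1 was at -0.1), and edgeR called 6 higher: Tap2, Nlrc5, Psmb9, Tapbp, Tap1 and Psmb10. Of all genes tested, 16.6% were called higher and 15.6% lower at that time. The groups did not overlap for 7 members, these 6 and B2m, as for 35.8% of all genes. The median over the 10 was 0.4, against -0.01 over all genes. On library totals the median of all genes was -0.23, the share of higher among all calls was 20.5% in place of 51.4%, and 2 members were called higher, Tap2 at 0.43 (edgeR adjusted p = 0.0015) and Nlrc5 at 0.41 (edgeR adjusted p = 0.012). DESeq2 called 8 of the 10 higher and limma-voom 6. The members together took 1.418 to 1.463% of the kept counts of labelled-KO libraries at 18 h.

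Tap2 had the largest difference. The 4 WT libraries at 18 h stood at 170, 165, 158 and 178 CPM and labelled-KO libraries 2, 3 and 4 at 287, 217 and 284 CPM. The labelled-KO libraries were all higher, with library 3 nearest to WT. The log2 fold change was 0.65 (SE 0.1, edgeR adjusted p = 3.8e-05). At 4 h the same comparison had given 276 to 309 CPM in WT and 286, 288 and 274 CPM in labelled KO, which overlapped.

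Nlrc5 stood at 275, 306, 274 and 264 CPM in WT and at 492, 350 and 455 CPM in labelled-KO libraries 2, 3 and 4 at 18 h, a log2 fold change of 0.63 (SE 0.12, edgeR adjusted p = 0.00057). Tapbp stood at 1409, 1271, 1279 and 1388 CPM in WT and at 1905, 1630 and 1926 CPM in labelled KO, 0.45 higher (SE 0.11, edgeR adjusted p = 0.0035). In both genes labelled-KO library 3 was the lowest of its group and still above every WT library. Tap1 stood at 472 to 536 CPM in WT and at 714, 557 and 710 CPM in labelled KO (log2 fold change 0.4, SE 0.14, edgeR adjusted p = 0.034).

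Of the immunoproteasome subunits, Psmb9 was measured at 90.9, 77.3, 89.2 and 91.6 CPM in WT and at 132, 96.2 and 132 CPM in labelled KO at 18 h (log2 fold change 0.46, SE 0.13, edgeR adjusted p = 0.0095). Psmb10 stood at 108 to 140 CPM in WT and at 181, 142 and 172 CPM in labelled KO (0.4, SE 0.12, edgeR adjusted p = 0.012). The groups overlapped for neither gene, and labelled-KO library 3 was closest to WT in both. Psmb8 overlapped, at 333 to 424 CPM in WT and 491, 412 and 481 CPM in labelled KO, and was not called (0.27, SE 0.11, edgeR adjusted p = 0.066).

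B2m, H2-K1 and Erap1 were not called at 18 h by edgeR, while DESeq2 called B2m (0.44, adjusted p = 0.031) and also Psmb8 (0.32, adjusted p = 0.019). B2m stood at 6485 to 6839 CPM in WT and at 7862, 10261 and 7997 CPM in labelled-KO libraries 2, 3 and 4, a difference of 0.39 (SE 0.16, edgeR adjusted p = 0.076). The labelled-KO libraries were all above WT, and library 3, the lowest for most other members, was here the highest. H2-K1 differed by 0.25 (SE 0.13, edgeR adjusted p = 0.16) and Erap1 by 0.12 (SE 0.08, edgeR adjusted p = 0.28), and both overlapped.

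**Figure D4:**
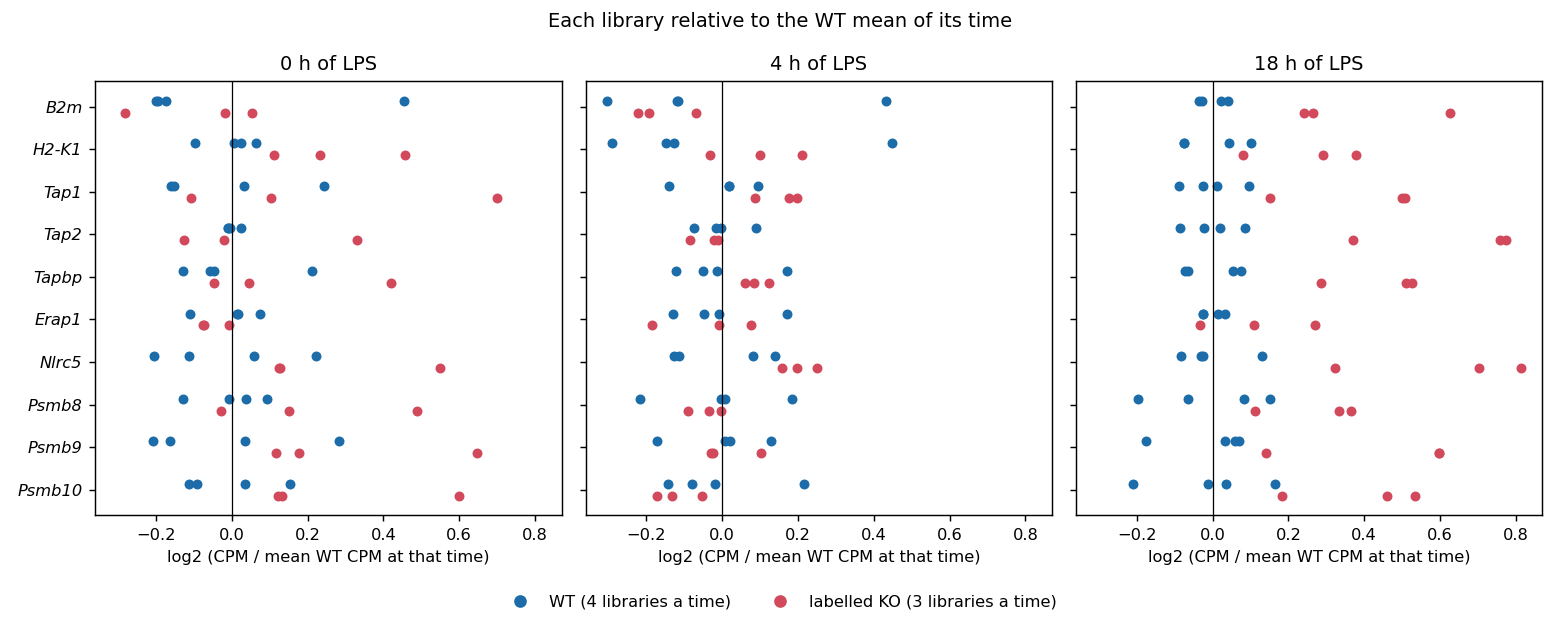
Level of each of the 10 genes in every library at 0, 4 and 18 h, as log2 of its CPM over the mean WT CPM at the same time. At 18 h every labelled-KO library lay above every WT library for Tap1, Tap2, Tapbp, Nlrc5, Psmb9, Psmb10 and B2m on this TMM scale.

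The count of 6 at 18 h changed with single libraries and with the scaling. It was 3 without labelled-KO library 2 and 3 without labelled-KO library 4, when Tap2, Tapbp and Nlrc5 were the ones still called. Without library 2, Tap1 was at 0.34, Psmb9 at 0.39 and Psmb10 at 0.33 (edgeR adjusted p = 0.12, 0.05 and 0.062). Without library 4 they were at 0.34, 0.39 and 0.37 (edgeR adjusted p = 0.13, 0.062 and 0.051). Tap2 and Nlrc5 were called under all 18 alternatives, at 0.43 to 0.77 and 0.41 to 0.76. Tapbp lost its call in 1, on library totals, where it was at 0.23 (edgeR adjusted p = 0.075), and reached 0.52 at most. Tap1 lost its call in 7 of the 18, among them leaving out WT library 1, 2 or 3 at 18 h and adding the stromal marker level of each library as a covariate (0.45, edgeR adjusted p = 0.065, with 5 members called). With the library number as a block 9 members were called, beside 2115 of 12529 genes called higher. That block pairs same-numbered libraries of WT and labelled KO. At 18 h these correlated no more than others (-0.05 to 0.16, other numbers -0.35 to 0.32).

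At 18 h the marker sums of the genotypes were apart for neutrophil and dendritic cell lists and overlapped for stromal, lymphocyte and macrophage lists. All 12 tested stromal markers were called higher in labelled KO, beside 16.6% of all genes. The neutrophil sum also rose with LPS within WT, so it need not follow the number of such cells. Summed over 13 stromal markers, all with a count in both groups, the level was 25.1 to 82.2 CPM in WT and 66.4 to 1152 in labelled KO. Over 14 neutrophil and precursor markers it was 196 to 282 CPM in WT, where Mpo, Elane, Prtn3, Ctsg and Retnlg were at 0, and 335 to 477 in labelled KO, where Mpo and Prtn3 were at 0. The 10 dendritic cell markers, with Cd209a at 0 in both, gave 16.2 to 19.7 CPM in WT and 35.6 to 46.7 in labelled KO. The 10 lymphocyte markers gave 2.87 to 4.27 CPM, with Ncr1 and Klrb1c at 0, and 3.68 to 5.41. The 10 macrophage markers gave 13865 to 15497 CPM in WT and 13614 to 14279 in labelled KO. At 0 h, when no member was called, stromal markers summed to 16.8 to 253 CPM in WT and 198 to 412 in labelled KO. Neutrophil markers then summed to 34.9 to 53 and 84.9 to 143, and dendritic cell markers to 17.1 to 22.6 and 25.3 to 35.2. At 4 h, also without a call, the ranges were 46.9 to 151 and 102 to 836 for stromal markers. For neutrophil markers they were 110 to 163 and 160 to 216, and for dendritic cell markers 32.4 to 44.7 and 46.3 to 63.2. The part of neutrophil, dendritic cell and lymphocyte markers in the 18 h difference was not tested, and that of stromal markers by the covariate alone.

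Whether LPS changed a gene differently in the labelled genotypes was tested as an interaction. At 4 h against 0 h no member was called by edgeR, DESeq2 or limma-voom (1 of 10 had an unadjusted edgeR p under 0.05, Psmb10 at -0.42), beside 0.599% of all genes called higher and 0.2% lower. At 18 h against 0 h 1 member was called, Tap2, whose rise was larger in labelled KO by 0.58 (SE 0.14, edgeR adjusted p = 0.0073), beside 8.57% of all genes called higher. From 4 to 18 h 2 members were called, beside 6.26% of all genes higher: Tap2 at 0.69 (SE 0.14, edgeR adjusted p = 0.0023) and Psmb10 at 0.52 (SE 0.17, edgeR adjusted p = 0.048). There 6 of 10 had an unadjusted edgeR p under 0.05, all higher, beside 3239 of 12529 genes in either direction. All 10 were above 0 on TMM-scaled counts, with a median of 0.39 against 0.0 over all genes. The share of higher among all calls of that last comparison was 57.7%, 46.3% with upper-quartile scaling and 17.4% on library totals, where the median of all genes was -0.22. At 18 h against 0 h that share went from 48.8 to 18% on library totals. From 4 to 18 h Tap2 was called under all 25 alternatives, at 0.46 to 0.81. At 18 h against 0 h it lost its call in 1 of 25, on library totals at 0.37 (edgeR adjusted p = 0.064), and reached 0.72 at most. Psmb10 lost its call in 13 of 25, and over all 25 it ran from 0.29 to 0.62. For Tap1, Tapbp, Nlrc5 and Psmb9, called between genotypes at 18 h, a difference between genotypes in the response to LPS was not called in these interactions on TMM-scaled counts.

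The subunit ratios were also compared between genotypes, in 9 tests. At 18 h the ratio of Psmb8 to Psmb5 was 5.5 ± 0.322 in labelled KO (SD, n = 3) and 3.81 ± 0.203 in WT (SD, n = 4), and that of Psmb10 to Psmb7 was 1.76 ± 0.185 and 1.2 ± 0.113. Neither pair of groups overlapped. For each the 2-sided exact permutation test gave p = 0.0571, the smallest that 3 against 4 libraries allow, and 0.171 after Benjamini-Hochberg adjustment. Psmb9 to Psmb6 overlapped, with 0.449 to 0.458 in WT and 0.439 to 0.694 in labelled KO. At 0 h the ratio of Psmb10 to Psmb7 was 0.645 ± 0.101 against 0.506 ± 0.0484, also without overlap. At 4 h all 3 ratios overlapped. Psmb5, Psmb6 and Psmb7 were not called between genotypes at any time by edgeR, DESeq2 or limma-voom (2 of the 3 had an unadjusted edgeR p under 0.05 at 18 h, both lower); on library totals Psmb5 (-0.47) and Psmb7 (-0.37) were called lower at 18 h by edgeR.

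The rest of the pathway was read from lists of related genes, counted on TMM-scaled values unless library totals are named. For reading these counts, edgeR called 35.1% of all genes higher at 4 h in WT, 34.8% at 18 h, and in labelled KO over WT at 18 h 16.6% higher and 15.6% lower. In WT it called 5383 of the 12529 genes lower at 4 h and 4554 at 18 h. On library totals 2130 genes were higher and 9098 lower at 4 h in WT, and 2354 and 7594 at 18 h. For labelled KO over WT at 18 h those counts were 1141 and 4419. Among 15 tested heavy chain genes other than H2-K1, 11 were called higher and 2 lower at 4 h in WT, and 12 higher and 2 lower at 18 h, against 8 and 2 and 11 and 2 on library totals. H2-M2 rose by 6.28 on the log2 scale at 4 h, and the nonclassical gene H2-Q6 by 4.06 at 4 h and 7.23 at 18 h. Both started low in WT at 0 h, at means of 0.245 CPM for H2-M2 and 2.66 CPM for H2-Q6, so these sizes are uncertain. Cd1d1, which presents lipids, and Mr1, which presents vitamin metabolites, fell at both times, Mr1 by 2.19 at 4 h and Cd1d1 by 1.25 at 18 h. Between genotypes at 18 h edgeR, DESeq2 and limma-voom each called 7 higher and 0 lower (0 lower also at an unadjusted p under 0.05), among them H2-M2 (1.45, edgeR adjusted p = 0.00012) and Cd1d1 (0.87, edgeR adjusted p = 0.00013), where all genes were called at 16.6% higher and 15.6% lower. On library totals 4 of these were higher and 0 lower. H2-M2 and Cd1d1 were low at 18 h, at means of 4.75 and 3.65 CPM in WT and 13.4 and 6.76 in labelled KO. H2-D1 differed by 0.2 (edgeR adjusted p = 0.13). At 0 h edgeR called 0 of the 15 between genotypes (3 at an unadjusted p under 0.05), DESeq2 1 and limma-voom 0, and at 4 h edgeR called 0 (4 at an unadjusted p under 0.05), DESeq2 1 and limma-voom 2. Q and T genes share sequence, and how shared reads were counted is not given, so their values are uncertain.

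Of 13 genes of peptide loading, trimming and heavy chain folding, 8 were higher and 3 lower at 4 h in WT, and 7 higher and 3 lower at 18 h. On library totals those counts turned to 4 higher and 8 lower, and to 3 higher and 9 lower. Tapbpl, a tapasin relative, rose by 2.45 at 4 h and Lap3, a leucine aminopeptidase, by 2.68, while Thop1, an oligopeptidase that destroys peptides in the cytosol, fell by 1.33. In labelled KO at 18 h 4 were higher and 3 lower than in WT, beside 16.6% and 15.6% of all genes, and on library totals 2 were higher and 7 lower. Tapbpl was higher by 0.49 (edgeR adjusted p = 0.0066), and the chaperone Calr was lower, with a log2 fold change of -0.33 (edgeR adjusted p = 0.023). Ide, an insulin-degrading peptidase, was higher in labelled KO at all 3 times, by 0.81, 0.47 and 0.61.

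Of 11 other subunits of the proteasome core, 10 were higher and 1 lower at 4 h in WT, and all 11 were higher at 18 h; on library totals it was 5 and 4 at 4 h, and 9 higher at 18 h. Between genotypes edgeR, DESeq2 and limma-voom each called 0 of them at all 3 times, with 2 at an unadjusted edgeR p under 0.05 at 0 h, 1 at 4 h and 0 at 18 h. On library totals edgeR called 5 of them lower at 18 h. Psma6 rose most at 4 h, by 2.46, and Psma1 fell by 0.15, which was not called with median-of-ratios factors (-0.07, edgeR adjusted p = 0.28). Of 7 proteasome activators and assembly factors, 5 were higher and 2 lower at both times in WT, and on library totals 2 and 5 at 4 h and 4 and 2 at 18 h. The activator subunits Psme1 and Psme2, which cap immunoproteasomes, rose by 2.12 and 3.29 at 4 h. Both were higher in labelled KO at 18 h, Psme1 by 0.42 (edgeR adjusted p = 0.02) and Psme2 by 0.41 (edgeR adjusted p = 0.0019), 2 of the 3 genes of that list called higher where 16.6% of all genes were. On library totals Psme1 was at 0.2 and Psme2 at 0.19, and neither was called.

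Of 28 tested regulators of class I genes, 24 were higher and 4 lower at 4 h in WT, and 21 higher and 4 lower at 18 h. From 4 to 18 h 4 were higher and 22 lower, beside 37.2% and 34.5% of all genes. On library totals the regulator counts were 20 and 7, 15 and 9, and 9 and 16. For the last comparison 7026 of all 12529 genes were higher there and 2590 lower. Irf1, an interferon regulatory factor that binds class I promoters, stood at 71.7 CPM on average at 0 h, 1614 at 4 h and 252 at 18 h in WT. Ciita, the class II counterpart of Nlrc5, rose by 2.22 at 4 h and fell by 5.43 from 4 to 18 h. Ifnb1, the gene of interferon beta, averaged 0.0293 CPM in WT at 0 h, 11.8 at 4 h and 4.87 at 18 h. Ifng did not pass the filter on low counts.

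Between genotypes, edgeR called 4 regulators at 4 h, all higher, among them Irf1 (0.49, edgeR adjusted p = 0.028) and Ciita (1.43, edgeR adjusted p = 0.026). Of all genes, 2.87% were called higher at 4 h. At 18 h 14 were higher and 2 lower in labelled KO, beside 16.6% and 15.6% of all genes, and on library totals 7 were higher and 4 lower. Irf1 differed by 0.63 (edgeR adjusted p = 0.00089), and Socs1 and Socs3, which restrain cytokine receptors, by 1.32 and 0.79. Ifngr1, a chain of the interferon gamma receptor, was higher at 4 h, by 0.36 (edgeR adjusted p = 0.017), and lower at 18 h, with a log2 fold change of -0.51 (edgeR adjusted p = 0.00021).

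The members varied together across the 21 libraries, which share their 3 times of LPS. On log2 CPM, Pearson's r was 0.99 between Tap1 and Tap2, 0.97 between B2m and H2-K1, and 0.82 between H2-K1 and Nlrc5. The 5 genes outside the list most like the mean of the 10 were Usp18, which removes the ubiquitin-like ISG15, Tgtp1, a GTPase, Lgals9, a galectin, Plaat3, a phospholipase and acyltransferase, and Mov10, an RNA helicase. Their r with that mean was 0.997 to 0.998 over 21 libraries. Usp18 averaged 12.7 CPM in WT at 0 h, 745 at 4 h and 589 at 18 h, and 876 in labelled KO at 18 h.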

How the data were processed

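The submitters' processing notes name the tools CASAVA 1.8.2 and HISAT2 2.1.0 and the build mm10. Each deposited value is the authors' estimated count of a RefSeq transcript, a multiple of 0.5, and 29.6% were not whole. The sources used here do not name the counting tool or say how it treated strand and shared reads. The design allowed for this, and values were rounded, 0.5 upward. Of 42361 transcript IDs, 42203 matched the RefSeq table and 65 GENCODE; the other 93, with 0.232 to 2.229% of counts per library, were left out. Other transcripts of a gene were left out too, so the genes kept summed to 12301504 to 29650081 per library. The deposited sums were 23478281.5 to 55852932. No 2 libraries of the same group were near-duplicates.

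All 21 libraries were fitted with 6 group means in edgeR 4.0.16 (quasi-likelihood test, TMM factors, default filter, R 4.3.3), with Benjamini-Hochberg adjustment over 12529 genes and calls under 0.05. The standard error is the log2 fold change over the square root of F. CPM uses TMM library sizes. The fit was tested on simulated data. Ratios were compared with scipy's exact permutation test. Members, lists and tests were chosen with earlier results of these data known. The text names the 10 members, 9 fixed related genes (1 of which is not reported here), and up to 2 genes per direction from each list, as ranked by size. Figures used matplotlib 3.10.9.

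Alternatives were DESeq2 1.42.0, limma-voom (limma 3.58.1), other scaling factors, library totals without factors (chosen after seeing the data), filters and transcript sums, the compared groups alone, a stromal covariate, the library number as a block, and fits without each library in turn. Same-numbered WT libraries deviated together between 0 and 4 h (correlations of 0.23 to 0.32, other numbers -0.23 to 0.09), so numbers pair there.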

Additional observations from a re-analysis of the deposited data

Results flagged for a closer look

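Of 30 sets of 4 WT libraries, 3 held a library far from the other 3 by Dixon's test, which flags about 1 in 20 sets by chance. B2m stood at 2271 CPM in WT library 1 at 0 h, where the other 3 lay between 1442 and 1470. Tap2 stood at 28.9 CPM in WT library 3 at 0 h, where the others lay between 28.2 and 28.3, a small difference in a tight group. Psmb9 stood at 77.3 CPM in WT library 2 at 18 h, where the others lay between 89.2 and 91.6.

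Of 30 tests of whether LPS acted differently in the labelled genotypes, 3 were called by edgeR. The rise of Tap2 from 0 to 18 h was larger in labelled KO by 0.58 on the log2 scale, and its change from 4 to 18 h by 0.69. The change of Psmb10 from 4 to 18 h was larger by 0.52. In labelled KO, every Tap2 library at 18 h was above every WT library, and at 4 h the groups overlapped.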

How the results depend on the processing

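Counts of members called kept within 1.5 times their value except as follows. For labelled KO over WT at 18 h, leaving out each library in turn gave 3 to 7 called higher. For 18 h over 4 h in WT it gave 1 to 3 higher. For 18 h over 4 h in labelled KO, upper-quartile scaling gave 5 higher in place of 3. The interaction at 18 h gave 1 to 2 higher with a library left out. The interaction from 4 to 18 h gave 1 to 4 higher with a library left out, 1 with upper-quartile scaling and 1 with summed transcripts, in place of 2. On library totals without TMM factors, an alternative chosen after seeing the data, labelled KO over WT at 18 h gave 2 higher in place of 6, 4 h over 0 h in WT gave 1 lower in place of 0, 18 h over 4 h gave 3 lower in place of 5 in WT and 6 higher in place of 3 in labelled KO, and the interactions gave 0 higher at 18 h and 1 from 4 to 18 h. There, among changes called in at least 1 of the compared fits, the direction turned for Erap1 at 4 h over 0 h (-0.2 in WT, -0.17 in labelled KO). It also turned, from 4 to 18 h in WT, for Erap1 (0.44), Tapbp (0.11) and Psmb10 (0.0). The cause was not tested. With the library number as a replicate block, 9 members were higher in labelled KO at 18 h, where same-numbered libraries of the genotypes correlated no more than others. The block gave 3 higher in the interaction from 4 to 18 h. It gave 10 of 10 higher at 4 h in WT, where the numbers pair the libraries. Over single members, 37 values lost a call, 24 gained one and 5 changed direction with a call in at least 1 of the compared fits. The other 2304 kept their call or lack of one. Changes of direction without a call in either fit are among these 2304. Over all genes at 18 h, 2074 were higher and 1960 lower in labelled KO, against 2527 and 1664 with DESeq2, 1838 and 2286 under upper-quartile scaling, 2448 and 1663 under median-of-ratios scaling, 1141 and 4419 on library totals, 1191 and 1194 with the stromal covariate, and 1339 and 1334 without labelled-KO library 4. The fewest counts behind a member in a group were 1238 (Psmb9 in labelled KO at 0 h), and each group had 3 or 4 libraries.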
